A study of Rattus norvegicus with 20 samples.

Results

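Voltage-gated sodium channel subunits were examined in RNA from the shell of the nucleus accumbens, the part of the ventral striatum tied to reward, of 20 alcohol-preferring (P) rats. The genes taken were Scn1a, Scn2a, Scn3a, Scn8a, Scn2b, Scn3b and Scn4b, by the gene symbol of every probe set that the array annotation assigns to 1 gene. This gave 7 of the 14218 genes named in this way, on 9 of the 31099 probe sets of the array, since Scn2b and Scn3b have 2 probe sets each. All 9 probe sets were brighter than the cut-off for dim probe sets, a mean of 6.66, so all 7 genes were tested.

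The ethanol group (n = 10 animals) was given solutions of 15 and 30% ethanol during adolescence, and the water group (n = 10 animals) was given water only. All animals were of the selectively bred P line, and the labels name no other treatment, genotype or age. Each animal gave 1 array, and the question was whether transcripts differed between the drinking and the water-only animals. Values are on the log2 scale, so that a difference of 1 is a doubling. The level of a probe set depends on its own probes, so levels are compared between animals and not between genes.

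A voltage-gated sodium channel opens when the membrane depolarises and carries the inward current that starts the action potential. Each channel has a large alpha subunit that forms the pore, encoded here by Scn1a, Scn2a, Scn3a and Scn8a, and smaller beta subunits, here Scn2b, Scn3b and Scn4b, which span the membrane once, alter gating and bind other membrane proteins. The beta subunit encoded by Scn4b can block the open pore with its short inner tail and so supports a resurgent current during repeated firing. It is abundant in medium spiny neurons, the GABAergic projection neurons that make up most striatal cells.

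Scn2b and Scn4b lie next to each other on rat chromosome 8, and Scn3a and Scn2a next to each other on chromosome 3. The stretches of 250 bases before the RefSeq start of Scn2b and Scn4b (assembly GRCr8) are shown because Scn4b and the brighter of the 2 Scn2b probe sets, as described further on, were correlated across animals, while the upstream sequences of these neighbouring genes differ. They are at chr8:54322133-54322382 and chr8:54343623-54343872, both on the plus strand, and capitals mark CpG dinucleotides.
Scn2b: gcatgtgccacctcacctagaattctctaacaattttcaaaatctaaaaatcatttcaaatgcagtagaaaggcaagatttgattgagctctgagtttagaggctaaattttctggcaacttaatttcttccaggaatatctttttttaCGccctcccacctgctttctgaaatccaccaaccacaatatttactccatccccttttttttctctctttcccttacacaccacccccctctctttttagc
Scn4b: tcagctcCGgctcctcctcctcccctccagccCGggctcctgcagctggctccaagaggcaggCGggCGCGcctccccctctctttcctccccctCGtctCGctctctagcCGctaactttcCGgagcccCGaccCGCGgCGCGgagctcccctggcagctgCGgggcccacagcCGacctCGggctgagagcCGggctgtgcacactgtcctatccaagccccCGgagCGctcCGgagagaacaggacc

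The Scn4b stretch holds 21 CpG dinucleotides and is 71.6% G and C, and the Scn2b stretch holds 1 CpG and is 38.8% G and C. The median of 33469 rat genes was 51.2% G and C and 5 CpG, and 93.6% of them had less G and C than Scn4b and 11.3% less than Scn2b. The RefSeq table gave this stretch for 5 of the 7 genes. Scn8a was the most extreme of these, at 86.0% G and C with 53 CpG, while Scn2a and Scn3a were at 39.6 and 41.6%. The GC box GGGCGG, searched on both strands, was found 6 times in the Scn8a stretch and in none of the other four, against 30.5% of all genes with at least 1 match. The core of the cAMP response element, TGACG, searched in the same way, was in none of the 5 stretches and in 18.2% of all genes.

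None of the sodium channel genes passed the adjusted threshold between ethanol and water animals. By limma with Benjamini-Hochberg adjustment over 20694 probe sets, 0 of the 9 sodium channel probe sets passed an adjusted p of 0.05, where 20 probe sets of the whole array, or 0.0966%, passed. With the brightest probe set standing for each gene, 0 of 7 genes passed, against 0.0931% of all genes. At an unadjusted p under 0.05 there were 2 of 9 probe sets, 1 for Scn2a and 1 for Scn2b, and over the whole array 12.1% of probe sets met this. Both were higher in ethanol, as were 6.01% of all probe sets at that unadjusted p. The differences, written throughout as ethanol minus water, were above 0 for 6 of the 7 genes, where 50.1% of all genes tested had a difference above 0, and the median was 0.13 against 0.000155 for all genes. These animals share 1 set of arrays, so the 7 signs are not separate observations.

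Scn4b showed the widest difference and the widest spread. Its values ran from 11.65 to 13.43 with a median of 12.98 in ethanol animals, and from 10.35 to 13.39 with a median of 12.58 in water animals. The groups overlapped over most of their range, and the lowest values belonged to water animals 20, 17 and 19, at 10.35, 11.22 and 11.44, followed by ethanol animal 8 at 11.65. The means were 12.91 ± 0.58 (SD, n = 10) in ethanol and 12.27 ± 0.97 in water, a difference of 0.64 ± 0.33 (SE) or 1.56-fold, with a 95% interval of -0.04 to 1.31 (limma, adjusted p = 0.437). Of 10 ethanol animals 8 lay above the water mean, and 3 of 10 water animals lay above the ethanol mean.

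In bulk tissue, fewer cells of a type and less RNA per cell cannot be told apart. Water animals 17, 19 and 20 also had the lowest mean level of 23 medium spiny neuron markers, at 11.71, 11.95 and 11.48, where the other 7 water animals lay between 12.45 and 12.79 and ethanol animals between 12.19 and 12.79. With these 3 animals left out, the Scn4b difference was 0.10 (adjusted p = 0.907), a comparison from which the lowest water values of Scn4b are missing by construction. With the marker mean of each array as a covariate the difference was 0.08 (adjusted p = 0.778). With array weights, which give less weight to arrays that stand apart, it was 0.36 (adjusted p = 0.643). With a single animal left out it ran from 0.42 without water animal 20 to 0.78 without ethanol animal 8 (unadjusted p = 0.0230), and the adjusted p (limma) from 0.299 to 0.614.

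**Figure D1:**
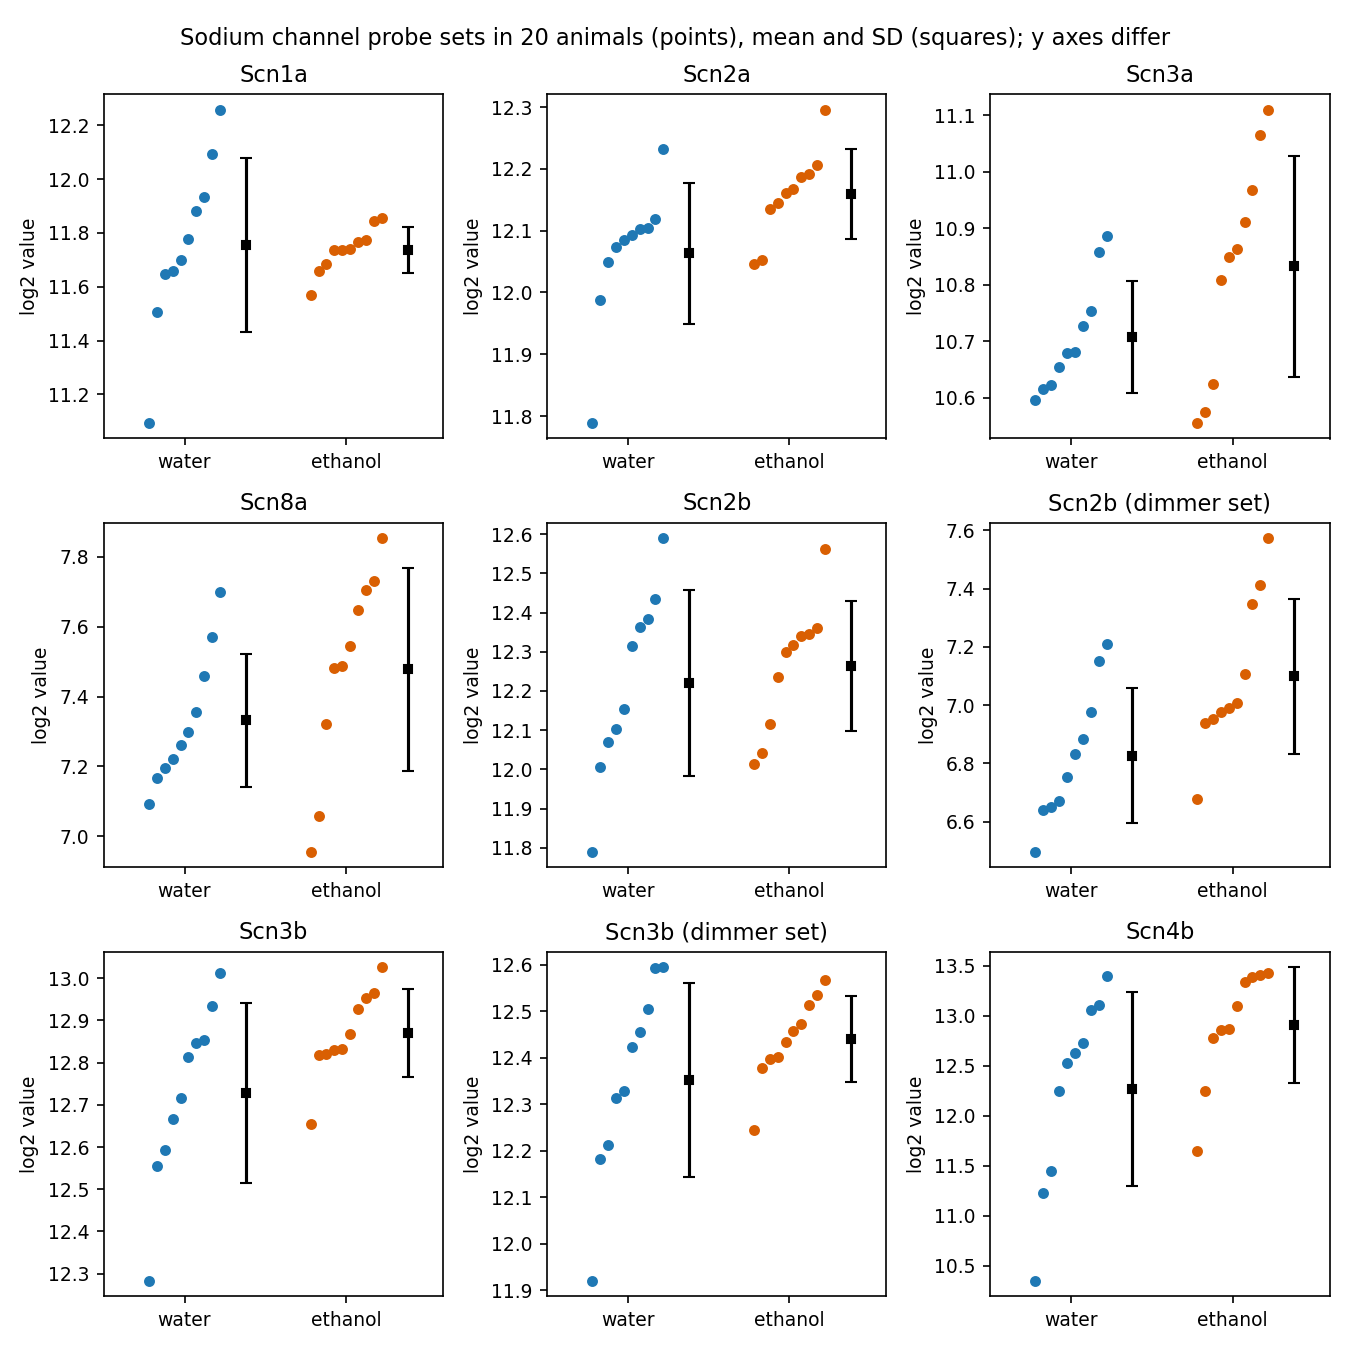
Log2 value of each sodium channel probe set in each animal, with water animals in blue and ethanol animals in orange, and the mean and SD of each group (n = 10) as black squares with bars. The y axes differ between panels. The groups overlap in every panel, the points of Scn4b spread over about 3 log2 units, and those of Scn1a are close together in ethanol (11.57 to 11.86) and wide apart in water (11.09 to 12.26).

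Among the other beta subunits, Scn3b, whose product associates with the alpha subunit without a covalent bond, was measured by 2 probe sets that had a Pearson r of 0.98 over 20 animals after subtraction of the group means. The brighter ran from 12.65 to 13.03 (median 12.85) in ethanol and from 12.28 to 13.01 (median 12.76) in water. Water animals 20, 19 and 12 were lowest, at 12.28, 12.55 and 12.59, and the groups overlapped. The difference was 0.14 ± 0.07 (SE; interval -0.01 to 0.29, limma, adjusted p = 0.433), and the dimmer probe set differed by 0.09 (adjusted p = 0.606). These values became 0.05 and 0.0016 when water animals 17, 19 and 20 were left out, and with the marker mean as covariate 0.04 and -0.0085.

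Scn2b encodes a beta subunit that, like that of Scn4b, is bound to the alpha subunit by a disulfide bond. Its brighter probe set ran from 12.01 to 12.56 (median 12.31) in ethanol and from 11.79 to 12.59 (median 12.23) in water, with the lowest value again in water animal 20. It differed by 0.04 ± 0.09 (interval -0.14 to 0.22, limma, adjusted p = 0.856), and by -0.06 without water animals 17, 19 and 20. Single animals set its sign and size, since it was -0.0054 without water animal 20, 0.0094 without ethanol animal 4, 0.02 without water animal 19 and 0.08 without water animal 18. The dimmer probe set of Scn2b lay near the cut-off of 6.66 (means of 7.10 in ethanol and 6.83 in water) and was brighter than only 37.3% of all probe sets. It differed by 0.27 ± 0.10 (interval 0.05 to 0.49, unadjusted p = 0.0167, limma, adjusted p = 0.338), with 9 of 10 ethanol animals above the water mean. Over 20 animals its r with the brighter one was 0.19 after subtraction of the group means. The mean of both probe sets differed by 0.16 (adjusted p = 0.457).

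Of the pore-forming subunits, Scn2a, the main alpha subunit of unmyelinated axons and of the young axon initial segment, had the smallest SD pooled within groups, although in water animals alone that of Scn3a was smaller (0.10 against 0.11). It ran from 12.05 to 12.30 (median 12.16) in ethanol and from 11.79 to 12.23 (median 12.09) in water. The lowest animals were water 20 and 17, and 8 of 10 ethanol animals lay above the water mean. The difference was 0.10 ± 0.05 (interval 0.0012 to 0.19, unadjusted p = 0.0474, limma, adjusted p = 0.407), and 0.06 without water animal 20. With the marker mean as covariate it was 0.05.

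Scn1a, the alpha subunit best known from fast-spiking inhibitory neurons and from epilepsy, had the same mean in both groups within error but an unequal spread. It ran from 11.57 to 11.86 (median 11.74) in ethanol and from 11.09 to 12.26 (median 11.74) in water. Water animals lay on both sides of all ethanol animals: 12 and 13 below them, at 11.09 and 11.51, and 17, 20, 19 and 14 above them, at 12.26, 12.09, 11.93 and 11.88. The difference was -0.02 ± 0.10 (interval -0.22 to 0.19, limma, adjusted p = 0.954). It was -0.09 without water animal 12, 0.04 without water animal 17, and 0.13 without water animals 17, 19 and 20 (adjusted p = 0.563), so its sign rested on single animals.

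The SD of Scn1a was 0.32 in water and 0.09 in ethanol, a ratio of 3.79. Water SDs were more than 3 times ethanol SDs for 5.34% of all probe sets, and more than 1.5 times for 47.9%. Scn2a (1.57), both Scn3b probe sets (2.05 and 2.25) and Scn4b (1.68) were also past the lower of these ratios. Scn3a, Scn8a and the dimmer Scn2b probe set went the other way, with ratios of 0.51, 0.66 and 0.87. These ratios are descriptions and were not tested.

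Scn3a, the alpha subunit typical of the embryonic and early postnatal brain, ran from 10.56 to 11.11 (median 10.86) in ethanol and from 10.60 to 10.89 (median 10.68) in water. Ethanol animals 1, 10, 3 and 4 lay above every water animal, at 11.11, 11.07, 10.97 and 10.91, and ethanol animals 7 and 6 lay below every water animal. It differed by 0.13 ± 0.07 (interval -0.01 to 0.27, limma, adjusted p = 0.455). The difference was 0.13 without water animals 17, 19 and 20 and 0.11 with the marker mean as covariate.

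Scn8a, the alpha subunit of the mature axon initial segment and node of Ranvier, was measured by a probe set of middling brightness (43.0% of all probe sets were dimmer). It ran from 6.96 to 7.85 (median 7.51) in ethanol and from 7.09 to 7.70 (median 7.28) in water. The highest and the lowest animal, 1 and 8, were both of the ethanol group. The difference was 0.15 ± 0.10 (interval -0.07 to 0.36, limma, adjusted p = 0.557), and 0.08 with the marker mean as covariate.

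RNA integrity was read from the 3' minus 5' value of the actin and GAPDH control probe sets, which grows as RNA breaks down. It ran from 1.06 to 1.43 in ethanol (1.21 ± 0.12, SD, n = 10) and from 1.10 to 1.70 in water (1.40 ± 0.22), and its part in the results was not tested beyond its use as a covariate. With it as a covariate the dimmer Scn2b probe set differed by 0.12 in place of 0.27, the brighter by 0.13 in place of 0.04 and Scn3a by 0.20 in place of 0.13, with adjusted p-values (limma) between 0.651 and 0.775. Scn4b differed by 0.78 in that fit (adjusted p = 0.703).

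**Figure D2:**
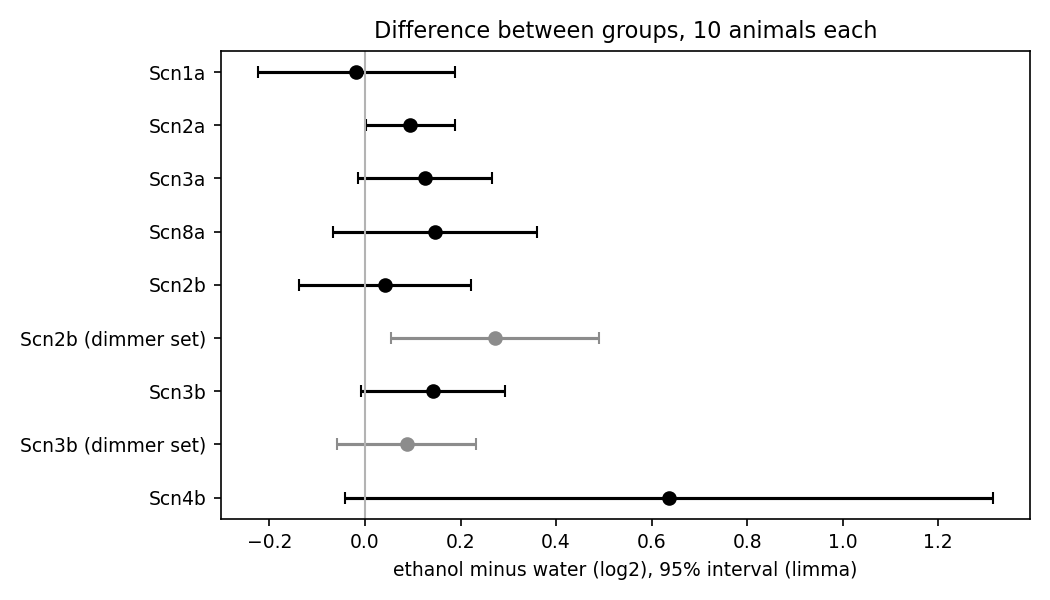
Ethanol minus water difference of each sodium channel probe set on the log2 scale (points) with its 95% interval from limma (bars), 10 animals per group, with the dimmer probe sets of Scn2b and Scn3b in grey. The interval of Scn4b, -0.04 to 1.31, is the widest, and only those of Scn2a and of the dimmer Scn2b probe set leave out 0.

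Scn4b was set against each of the other 6 genes within arrays, because a wider difference in Scn4b does not by itself show that it differed more than the others. The value of Scn4b minus that of the other gene was taken in each animal and compared between groups. Scn4b was higher in ethanol by 0.66 relative to Scn1a, 0.59 relative to Scn2b, 0.54 relative to Scn2a, 0.51 relative to Scn3a and 0.49 relative to both Scn8a and Scn3b. The smallest p belonged to the neighbouring gene Scn2b (0.59 ± 0.28 SE, two-sided permutation test with 100000 resamples, p = 0.0489). After adjustment over the 6 pairs each had p = 0.161, so none passed.

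In each of the 6 comparisons 8 or 9 of 10 ethanol animals lay above the water mean of the pair. Leaving out water animal 20 gave the smallest difference in every pair, between 0.29 and 0.43. Without water animals 17, 19 and 20 the differences lay between -0.03 and 0.16. All 6 share the Scn4b value, so they are not separate observations.

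Apart from treatment, Scn4b was among the most variable transcripts on the array. Its SD within groups, 0.80, was larger than that of 99.9% of the 20694 probe sets tested. Those of the other sodium channel probe sets lay between 0.10 (Scn2a, larger than 20.1% of probe sets) and 0.25 (dimmer Scn2b, 88.8%).

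Both Scn3b probe sets and the brighter Scn2b probe set varied with Scn4b across animals, while the dimmer Scn2b probe set did not pass. Over 20 animals the brighter Scn3b probe set was correlated with Scn4b at Pearson's r = 0.92 and Spearman's rho = 0.91 (permutation p = 1e-05 for both, the smallest the resamples can give; adjusted over 8 probe sets 5.33e-05 and 8e-05). Without the 2 animals farthest from the median of Scn4b, water 20 and 17, r was 0.87, and it was 0.83 within ethanol and 0.93 within water. The brighter Scn2b probe set had r = 0.82 and rho = 0.71 (permutation p = 2e-05 and 0.00076, adjusted 5.33e-05 and 0.0020), with r = 0.78 without those 2 animals, 0.76 within ethanol and 0.89 within water. The dimmer Scn2b probe set had r = 0.43 and rho = 0.47 (permutation p = 0.0565 and 0.0402, adjusted 0.0753 and 0.0536), with 0.47 within ethanol and 0.21 within water, so for Scn2b the relation rests on 1 of 2 probe sets that differ. The dimmer Scn3b probe set had r = 0.87 and rho = 0.83 (permutation p = 2e-05 for both, adjusted 5.33e-05 and 8e-05). Genes of 1 array share its RNA, hybridisation and normalization. The share of all genes that would pass this test was not computed, so passing does not set these probe sets apart from other genes. After subtraction of the group means, r with Scn4b ran from -0.95 to 0.99 over all genes.

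Of the 4 alpha subunit genes, Scn2a and Scn8a passed the same test and Scn3a and Scn1a did not. No test compared the correlations with each other. The share of all genes that would pass was not computed, so passing does not set Scn2a and Scn8a apart from other genes. Without water animals 17, 19 and 20, r was 0.34 for Scn2a and 0.50 for Scn8a. Scn2a had r = 0.75 and rho = 0.54 (permutation p = 0.00034 and 0.0149, adjusted 0.00068 and 0.0298), with r = 0.40 without water animals 20 and 17, 0.66 within ethanol and 0.71 within water. Scn8a had r = 0.49 and rho = 0.49 (permutation p = 0.0277 and 0.0282, adjusted 0.0444 and 0.0451), with r = 0.45 without those animals, 0.80 within ethanol and 0.18 within water. Scn3a had r = 0.35 and rho = 0.35 (permutation p = 0.133 and 0.126, adjusted 0.133 and 0.145), with 0.67 within ethanol and -0.20 within water. Scn1a had r = -0.36 and rho = -0.12 (permutation p = 0.124 and 0.599, adjusted 0.133 and 0.599), with 0.53 within ethanol, -0.53 within water and 0.18 without water animals 20 and 17.

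Several genes matched the pattern of Scn4b almost exactly. After subtraction of the group means, the highest Pearson r over 20 arrays belonged to Inf2, a formin that remodels actin (0.99), Itpr1, the receptor that releases calcium from the endoplasmic reticulum (0.99), Neu2, a sialidase (0.98), Ano3, a membrane protein of the anoctamin family (0.98), and Atp2b1, a calcium pump of the plasma membrane (0.98). Without water animals 17, 19 and 20 the same 5 genes had r between 0.96 and 0.98. All 23 measured spiny neuron markers had a positive r with Scn4b, with a median of 0.93 (0.88 without the 3 animals), where the median over all genes was -0.06.

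The same measure was taken for the other beta subunits. The brighter Scn3b probe set was most like Gpr155, Fmnl1 and Rgs9 (r = 0.95, 0.94 and 0.94), Rgs9 being a striatal regulator of G-protein signalling. The dimmer was most like Unc79, a partner of the sodium leak channel (0.95), the striatal phosphatase Ptpn5 (0.94) and Fmnl1 (0.94). The brighter Scn2b probe set was most like Mpp3, Dzip1l and Zfyve28 (0.89, 0.87 and 0.87). The dimmer Scn2b probe set had Kpna1, Gnao1 and S1pr1 first (0.78, 0.71 and 0.71). Without water animals 17, 19 and 20 the same genes had r of 0.88 with the brighter Scn3b probe set and 0.87 to 0.93 with the dimmer. For Scn2b these were 0.80 to 0.82 with the brighter and 0.69 to 0.77 with the dimmer.

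The alpha subunits were each like other genes. Scn2a was most like Fgfr1op2, Cyld and Ywhaz (0.90, 0.90 and 0.89), Scn1a most like Clic2, Sanbr and Ahcyl1 (0.93, 0.93 and 0.92), and Scn8a most like Ifit2, Ntm and Pja2 (0.77, 0.76 and 0.75). For Scn3a the first 3 were the pseudogene Tmsb10-ps5 (0.78) and the endothelial genes Tek, the angiopoietin receptor (0.77), and Slco1a4, a transporter of the blood-brain barrier (0.73). Without water animals 17, 19 and 20 the same genes had r of 0.74 to 0.79 with Scn2a and 0.85 to 0.91 with Scn1a. These were 0.75 to 0.78 with Scn8a and 0.72 to 0.81 with Scn3a. The 12 endothelial and mural markers had a median r of 0.48 with Scn3a, against -0.08 over all genes. Of these 12, with Tek and Slco1a4 among them, 9 had an r above 0 (range -0.31 to 0.77), as had 39.6% of all genes.

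Slopes on the spiny neuron markers are given as a description. Scn4b had r = 0.97 and rho = 0.96 with the marker mean over 20 animals (permutation p = 1e-05 for both, the smallest the resamples can give, adjusted over 9 probe sets 4.5e-05 and 3e-05), and r = 0.96 without water animals 20 and 17. Per unit of the marker mean within groups the slope was 2.20 for Scn4b, 0.46 and 0.41 for the brighter probe sets of Scn2b and Scn3b, 0.26 for Scn8a and 0.20 for Scn2a. It was 0.04 for Scn3a and -0.35 for Scn1a. Without water animals 17, 19 and 20 the slopes were 3.0 for Scn4b, 0.78 for Scn2b, 0.59 for Scn3b, 0.72 for Scn8a, 0.17 for Scn2a, 0.32 for Scn3a and 0.46 for Scn1a, so that of Scn1a changed sign. RMA can compress the slope of a probe set, so slopes of different genes are not on 1 common scale of RNA.

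**Figure D3:**
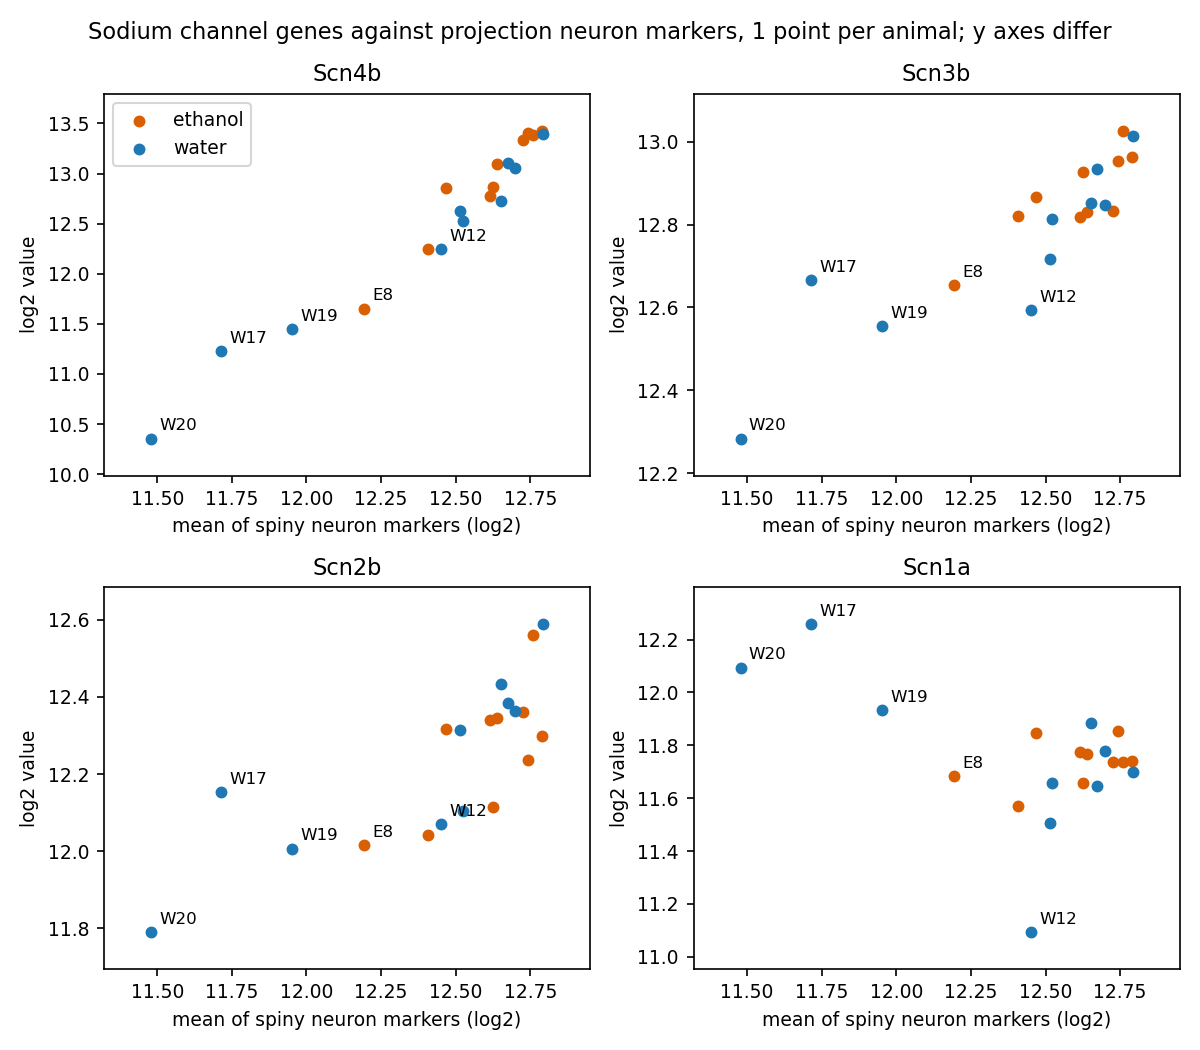
Log2 values of Scn4b, Scn3b, Scn2b (brighter probe sets) and Scn1a in each animal against the mean log2 value of 23 medium spiny neuron markers, with water in blue and ethanol in orange. Water animals 12, 17, 19 and 20 and ethanol animal 8 are named. Scn4b rises with the marker mean throughout (r = 0.97), while Scn1a is highest in the water animals with the lowest marker means and lowest in water animal 12.

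Markers of the tissue and of other cells were read in the same arrays, and their relation to Scn4b differed between lists. Spiny neuron markers were present at high levels in both groups, with Drd1, the dopamine receptor of the direct pathway, at 13.49 and 13.20, Drd2, that of the indirect pathway, at 11.31 and 11.04, and the signalling inhibitor Ppp1r1b at 13.12 and 12.95 in ethanol and water. All 23 measured markers had a difference above 0, 0 passed over all probe sets and the median was 0.24, and Adora2a, the adenosine receptor of the indirect pathway, differed by 0.37 (adjusted p = 0.428). Array means of the list ran from 12.19 to 12.79 in ethanol and from 11.48 to 12.79 in water.

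Markers of oligodendrocytes ran the opposite way. All 17 measured had a difference below 0 and 0 passed, with array means from 10.81 to 11.69 in ethanol and from 10.78 to 11.70 in water. The differences ran from -0.25 to -0.06 with a median of -0.15, and Mbp, the myelin basic protein, had the smallest of them at -0.06 (adjusted p = 0.748). All 17 had a negative r with Scn4b (median -0.72), where 46.0% of all genes had an r above 0. Over 20 animals, only 1 of 13 microglia and 2 of 13 astrocyte markers had an r with Scn4b above 0 (medians -0.53 and -0.50). Without water animals 17, 19 and 20 the medians were -0.66 for oligodendrocyte, -0.31 for microglia and 0.01 for astrocyte markers. Then 0 of 17, 1 of 13 and 7 of 13 had an r above 0. Mostly negative r was thus shared by microglia markers in both sets, and by astrocyte markers only with these animals included. Genes that mark septum, basal forebrain and pallidum, regions that border the shell, were highest in water animals 20, 17 and 19, at means of 8.90, 8.66 and 8.39 over 6 measured genes, where all other animals lay between 7.47 and 8.09. This list was mixed, with an r with Scn4b above 0 for 2 of 6 genes (range -0.83 to 0.57). Its differences ran from -0.35 to 0.15 and were above 0 for 1 gene. The water SDs of its genes ran from 0.16 to 1.29. Water animals 20, 17 and 19 also had the lowest Scn4b. Markers of GABAergic and cholinergic interneurons were highest in them too, at 10.48, 10.36 and 10.10 over 9 genes, against 9.51 to 10.03 in the others. That list was mixed, with an r with Scn4b above 0 for 4 of 9 genes (range -0.90 to 0.40) and differences from -0.37 to 0.14. Kcnc2, Pvalb, Calb2 and Kcnc1, named after their values were seen, had water SDs of 0.60 to 0.94, and the other five, the cholinergic genes Chat, Slc18a3 and Slc5a7 among them, of 0.16 to 0.28.

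The remaining lists were narrower. Array means of 13 astrocyte markers ran from 11.80 to 12.06 in ethanol and from 11.81 to 12.28 in water, and Gfap differed by -0.36 (adjusted p = 0.458). Those of 13 microglia markers ran from 8.96 to 9.18 and from 8.96 to 9.43, with Aif1 at -0.14 (adjusted p = 0.394), and those of 12 endothelial and mural markers from 8.75 to 9.04 and from 8.71 to 8.97. The 18 pan-neuronal markers ran from 12.14 to 12.34 in ethanol and from 12.12 to 12.56 in water, with the highest mean in water animal 20. The 6 cortical excitatory markers measured ran from 8.50 to 8.83 and from 8.47 to 8.76, and 4 of them, Slc17a7, Neurod6, Tbr1 and Emx1, were dimmer than the cut-off. The part of other cells or of the dissection in the values of Scn4b and its relatives was not tested.

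**Figure D4:**
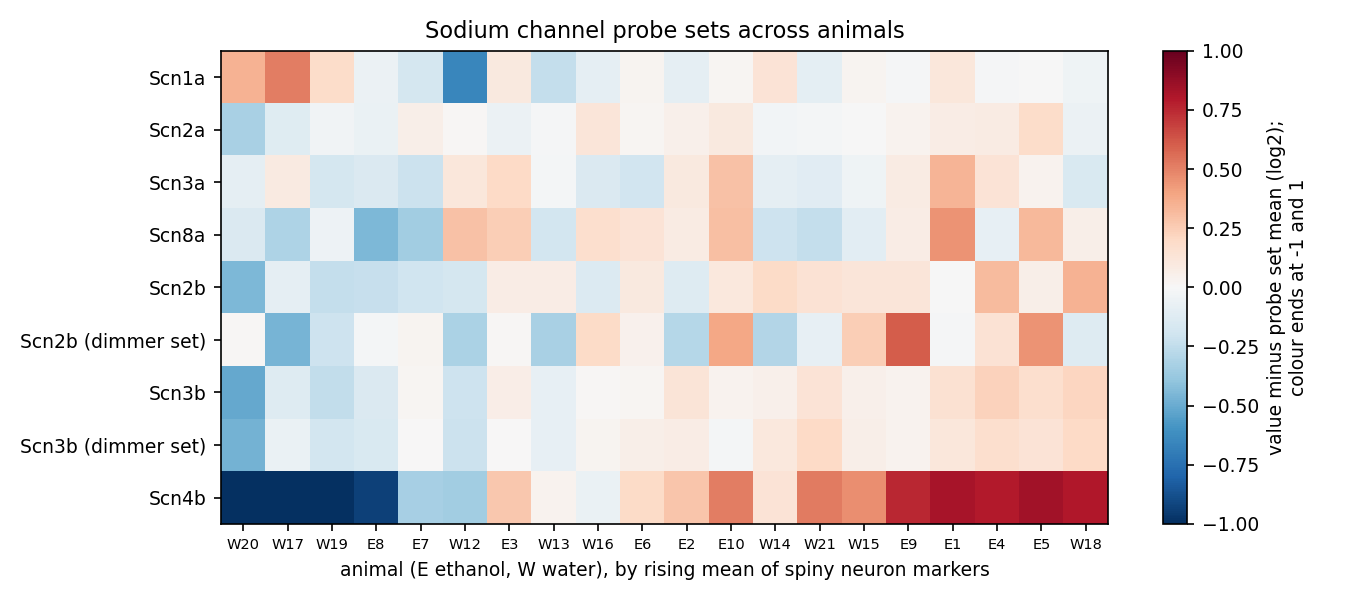
Deviation of each sodium channel probe set from its mean over 20 animals (log2, colour scale ending at -1 and 1), with animals ordered from the lowest to the highest mean of spiny neuron markers and named by group (E ethanol, W water) and number. The deepest blue of Scn4b is in the leftmost animals, water 20, 17 and 19 and ethanol 8, where Scn3b is also low, and the reddest cells of Scn1a are in the first 3 of these.

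No other gene of the sodium channel lists passed. Of the further channel genes 3 were measured above the filter and 0 passed. Nalcn, the sodium leak channel that sets resting excitability, differed by 0.03 (interval -0.04 to 0.10, limma, adjusted p = 0.693). Scn9a, a channel best known from pain-sensing neurons, was dim and differed by -0.18 (adjusted p = 0.671), and Scn11a differed by -0.05 (adjusted p = 0.793). Scn4a, Scn7a and Scn10a were dimmer than the cut-off.

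Among 14 measured partners and regulators of the channel, 0 passed, 9 had a difference above 0 and the median was 0.04. The smallest p-values were those of Fyn, a tyrosine kinase (-0.11, adjusted p = 0.327), Fgf14, an intracellular fibroblast growth factor homolog that binds the channel's tail (0.17, adjusted p = 0.406), and Nedd4l, a ubiquitin ligase that removes channels from the membrane (0.31, adjusted p = 0.469). Of 22 measured genes of the axon initial segment and node 0 passed, 10 had a difference above 0 and the median was -0.01. Ank3, the ankyrin that anchors sodium channels at the initial segment, differed by 0.11 ± 0.04 (SE; 12.39 in ethanol and 12.28 in water, unadjusted p = 0.0137, adjusted p = 0.327). Tnr, a matrix protein, differed by -0.15 (adjusted p = 0.433) and Sptbn4, the spectrin of the initial segment, by 0.09 (adjusted p = 0.461). At an unadjusted p under 0.05 there were 0 of 3, 2 of 14 and 1 of 22 genes in these lists, against 1076 of 10746 genes in all.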

How the data were processed

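The members and gene lists were chosen with earlier results of these data known. RNA of 20 animals was hybridised to 1-colour Affymetrix arrays, with cRNA made from the 3' end per the labels' protocols. The values the authors deposited are log2 values made with RMA (background correction, normalization between arrays, probe set summary), per the submitters' processing notes; the sources used here give no software, version or chip definition. RMA shrinks differences of dim probe sets. The values ran from 3.89 to 16.25, with array medians of 7.93 to 7.98, and the number of arrays limits the precision.

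Probe sets were named by the platform table (1 gene for 20826, several for 436, none for 9780, and 57 controls). Of those with 1 gene, 20758 matched the RefSeq table of GRCr8 by gene ID, and 0 symbols changed. Controls and the 33.33% of probe sets with the lowest mean (under 6.66) were left out, leaving 20694 probe sets and 10746 genes. The brightest probe set stood for a gene. Groups were compared with two-sided tests of limma 3.58.1 (R 4.3.3; lmFit, then eBayes; treatment as the single term), and p-values were adjusted by Benjamini-Hochberg over every probe set tested, at 0.05. Pairs of genes and correlations used permutation tests of 100000 resamples. The limma fit and the permutation test of pairs were tried on simulated data, and the permutation test of correlations was not.

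Most genes were named by rule: all members, the 3 genes of smallest p in each list of channel-related genes, since none passed, set examples for the marker lists (Drd1, Drd2, Adora2a, Ppp1r1b, Mbp, Gfap and Aif1), and the 3 genes (5 for Scn4b) most correlated with each probe set after subtraction of group means, predicted loci aside. Outside the rule, Kcnc2, Pvalb, Calb2 and Kcnc1 were named after their values were seen, with Chat, Slc18a3 and Slc5a7 beside them. Some genes dimmer than the cut-off were also named. Arrays called outlying (water 12, 17 and 20) had a median correlation with the rest that was low by more than 3 scaled median absolute deviations. The 3' minus 5' value, from actin and GAPDH controls, was 1.21 ± 0.12 in ethanol and 1.40 ± 0.22 in water (SD, n = 10). Alternatives varied the dim cut-off, scaling, variance model, weights, probe set rule, covariates and arrays used, and took 3 runs in the order of deposit, which no label calls batches, as a block. Animal numbers are not shared between groups.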

Additional observations from a re-analysis of the deposited data

How the results depend on the processing

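No sodium channel gene passed the threshold in any of 12 alternatives or with any of the 20 animals left out in turn, and none of the 6 pair differences passed in 4 alternatives or with an animal left out. The count of all probe sets past the threshold, 20 as reported, was 10 with probe sets below the median left out, 38 with array weights, 7 with the 3' to 5' control difference as a covariate, 48 with the spiny neuron marker mean as a covariate and 50 without water animals 17, 19 and 20, and 14 to 24 with an animal left out. Scn4b differed by 0.08 (marker mean as covariate) to 0.78 (3' to 5' control difference as covariate), and its adjusted p lay between 0.423 and 0.907 over the 12 alternatives, and between 0.299 and 0.614 with an animal left out. With the 3 runs of deposit order as a block, Scn3a had an unadjusted p of 0.0376 and the dimmer Scn2b probe set 0.0097 (adjusted 0.387 and 0.306). Without the outlying arrays Scn4b differed by 0.21. No paired analysis was possible because the groups share no animal numbers. A p that misses the threshold does not show that the groups were alike: the interval of Scn4b reaches 1.31, and the number of arrays sets this width.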
